A study of Mus musculus with 18 samples.

Results

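The cytosolic ribosome is built from ribosomal RNA and a fixed set of ribosomal proteins, each present in about equal number in a finished particle and divided between a small subunit, which decodes the mRNA, and a large subunit, which joins amino acids. The mRNAs of these proteins begin with a run of pyrimidines, the terminal oligopyrimidine (TOP) tract, through which mTORC1 signaling controls their translation. T cells that are activated make more ribosomes, and regulatory T cells (Tregs), the Foxp3+ CD4+ T cells that restrain immune responses, depend on mTORC1 for their fitness. The cytosolic ribosomal protein genes were examined here in Tregs with and without CHD8, a chromatin remodeler of the chromodomain helicase DNA-binding family. They were chosen by name, as every gene whose symbol is Rpl, Rps or Rplp followed by a number and at most the letter a or x. The rule found 75 genes, 46 of the large and 29 of the small subunit, among 35865 genes listed under a single name. All 75 passed the filter on low values and were among the 15240 genes tested.

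The RNA of YFP+ cells, sorted from CD4+ T cells of the spleen, was sequenced as 1 library from each of 2 WT and 2 Chd8-/- mice. The study used mice of 5 to 7 weeks and their littermates. Chd8-/- libraries carry the genotype label CHD8Flox/FloxFoxp3YFP-Cre and WT libraries the label CHD8flox/floxFoxp3YFP-Cre/+. The WT label thus also names both Chd8 alleles as floxed, whereas the study gives its WT mice as Chd8+/+. All libraries carry the treatment label Poly IC injection. Cre is a fusion with yellow fluorescent protein (YFP) expressed from the X-linked Foxp3 locus, so that deletion was restricted to cells that express Foxp3. The grouping as WT and Chd8-/- is that of the sample titles and of the study. Values were TPM, a transcript abundance scaled by gene length and by the total of the library. The read depth behind them is unknown, and no interval for counting error was given.

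Chd8 itself was at 14.9 and 11.4 TPM in the Chd8-/- libraries against 24.7 and 27.6 TPM in the WT libraries. The log2 fold change was -0.95 (SE 0.29), with an adjusted p of 0.455 (limma, Benjamini-Hochberg). Foxp3 was at 232.1 and 205.3 TPM in the Chd8-/- replicates against 202.8 and 215.4 TPM in the WT replicates, and each of the 7 Treg markers examined was present in every library. The study describes mice of both sexes in each genotype. In the files Xist ranged from 500.2 to 843.3 TPM, and the Y-linked genes Kdm5d, Eif2s3y, Uty and Ddx3y were listed at 0 in all 4 libraries.

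Chd8-/- replicate 2 stood apart from the others. Over all genes tested its log2 values correlated at 0.860 with Chd8-/- replicate 1 and at 0.840 and 0.842 with the WT libraries, whereas the WT libraries correlated at 0.919 with each other. Erythroid markers summed to 8.7 TPM in Chd8-/- replicate 1, 2009.4 TPM in Chd8-/- replicate 2 and 386.8 and 352.5 TPM in WT. The 8 myeloid markers summed to 33.2, 1645.0, 208.7 and 225.3 TPM in the same order. Most of the sum in Chd8-/- replicate 2 was Lyz2, at 1360.3 TPM, and S100a9 was at 23.1 TPM there. B cell markers summed to 110.5, 408.1, 113.1 and 125.3 TPM, and CD8 and NK cell markers to 11.3, 51.3, 45.0 and 30.6 TPM. Single markers did not all follow these sums. In Chd8-/- replicate 2 Alas2 was at 7.5 TPM against 15.0 and 21.5 TPM in WT, and Adgre1 at 4.3 TPM against 9.4 and 4.5 TPM. Cd79b was at 8.9 TPM against 15.6 and 12.4 TPM, and Klrb1c at 0.0 TPM against 0.9 and 4.0 TPM. In Chd8-/- replicate 1, Hba-a2, Hbb-bs, Hbb-bt, Klf1, Adgre1, Fcer1g, S100a9 and Pax5 were listed at 0. In bulk RNA fewer cells of a type and less RNA per cell cannot be told apart, and the part of these cells in the results on ribosomal protein genes was not tested. Counts are therefore also given without this library.

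Start regions of the ribosomal protein genes were read from RefSeq (build GRCm38.p6), which held an entry for 55 of the 75 genes. Where a gene had several annotated starts, it counted as having a sequence if any of them did, here and over all genes. A tract was taken as a C followed by 4 or more pyrimidines, with no other letter between them, on the strand of the gene and within 20 bases of the annotated start. It was present in 44 of the 55 genes, 80.0% (95% Wilson interval 67.6 to 88.4), against 49.9% of 27025 genes in the table. At the start itself the shares were 23.6% and 3.0%. Other letters were searched in a window of 300 bases, from 250 before to 50 after the start. CGGAAG, the core bound by many ETS factors, was held on either strand by 69.1% of the ribosomal protein genes and 18.8% of all genes. The longer CCGGAAGT, which contains it, was held by 18.2% and 4.3%. TATAAA, anywhere in this window on the strand of the gene, was held by 9.1% and 9.8%. The 44 genes with the tract had a median log2 fold change of -0.06, with 16 higher and 28 lower in Chd8-/- Tregs, and the 11 without it a median of -0.22, with 1 higher and 10 lower. Over all genes tested 61.5% were lower and the median was -0.15. These are descriptions of 2 sets of unequal size, and their difference was not tested. Presence and absence of the tract refer to annotated starts, which were not checked against measured ones.

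To show these starts beside the changes described further on, 30 bases are given for 4 of the lowest and 4 of the highest genes by log2 fold change. Rps14, also among the lowest, and Rpl3, also among the highest, are not shown. The annotated start is the base at position 11, and capitals mark a C with 4 or more pyrimidines. Where a gene had several annotated starts, the start with the longest tract was taken, so the printed starts were partly chosen by the tract. Those of Rps2, Rps9 and Rpl35a lie downstream of the first annotated base of the gene. Those from the low end were Rpl24 (chr16:55966265-55966294, plus strand), Rpl35a (chr16:33056472-33056501, plus strand), Rpl23 (chr11:97782420-97782449, minus strand) and Rps15a (chr7:118116128-118116157, minus strand).
Rpl24: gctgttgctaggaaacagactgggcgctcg
Rpl35a: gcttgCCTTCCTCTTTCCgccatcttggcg
Rpl23: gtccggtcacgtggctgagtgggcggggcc
Rps15a: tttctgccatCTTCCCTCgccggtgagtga
Those from the high end were Rpl14 (chr9:120571507-120571536, plus strand), Rps9 (chr7:3704031-3704060, plus strand), Rpl10 (chrX:74270806-74270835, plus strand) and Rps2 (chr17:24720053-24720082, plus strand).
Rpl14: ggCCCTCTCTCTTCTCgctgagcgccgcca
Rps9: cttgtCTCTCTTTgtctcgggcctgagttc
Rpl10: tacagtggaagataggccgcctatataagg
Rps2: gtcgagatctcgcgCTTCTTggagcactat
Both sets held genes with and without a tract in this window. The longest run was 14 bases in Rpl14 and 13 bases in Rpl35a, which lay at opposite ends of the list, and Rpl24, Rpl23 and Rpl10 had none within these bases.

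Ribosomal protein mRNAs were among the most abundant in every library. Their TPM summed to 149293.0 in Chd8-/- replicate 1, 134429.0 in Chd8-/- replicate 2, 151641.4 in WT replicate 1 and 144814.4 in WT replicate 2. As a share of the library this was 14.9%, 13.4%, 15.2% and 14.5%. The means were 14.2% ± 1.05 (SD, n = 2) in Chd8-/- and 14.8% ± 0.48 (SD, n = 2) in WT Tregs, and the difference of -0.64 percentage points was smaller than the spread between the Chd8-/- libraries. Chd8-/- replicate 1 lay between the WT libraries and Chd8-/- replicate 2 below both. With 2 libraries a side the smallest p of an exact permutation test is 0.333, and no test was made of this sum.

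TPM is a share of a total, and other transcripts in that total differed between libraries. The 13 mRNAs encoded by mitochondrial DNA took 8.54% of TPM in Chd8-/- replicate 1, 12.7% in Chd8-/- replicate 2, 11.8% in WT replicate 1 and 11.3% in WT replicate 2. Mir6236, a short RNA gene, took 0.987%, 2.51%, 1.25% and 0.692%. With both left out of the total, the ribosomal protein genes took 16.5%, 15.9%, 17.4% and 16.4%. Chd8-/- replicate 2 remained the lowest library on this scale, and Chd8-/- replicate 1 then lay within the range of the WT libraries.

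**Figure D1:**
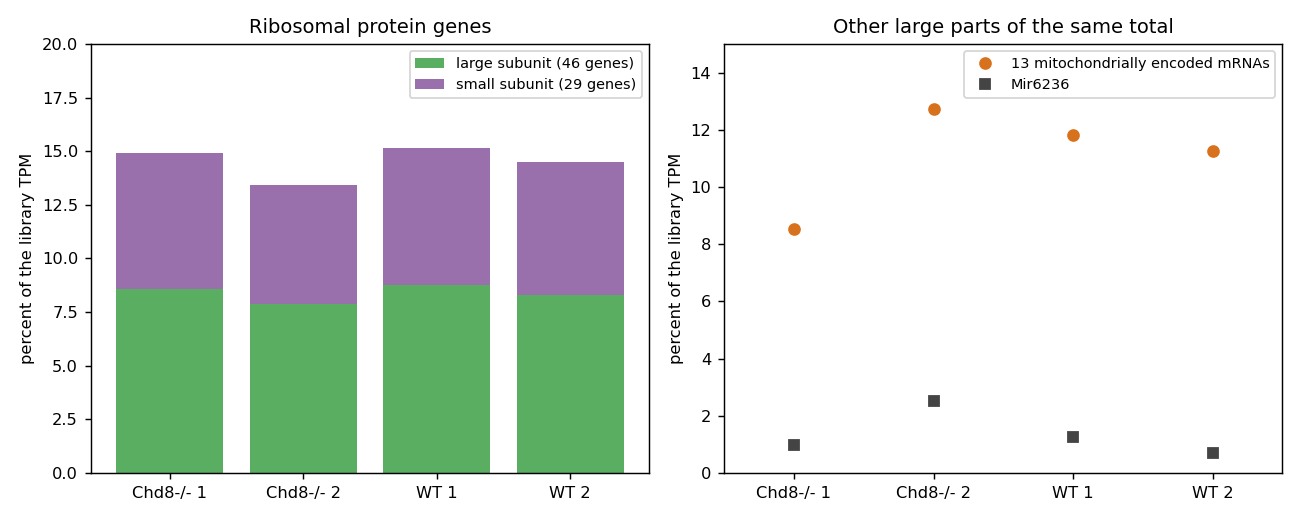
Share of the library TPM (percent, vertical axes) in each of the 4 libraries. Left, the ribosomal protein genes, stacked as 46 large subunit genes and 29 small subunit genes, total 13.4% to 15.2%; right, the 13 mitochondrially encoded mRNAs (circles) and Mir6236 (squares), both highest in Chd8-/- replicate 2.

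Both subunits moved little against each other. The ratio of summed large to small subunit TPM was 1.343 in Chd8-/- replicate 1, 1.405 in Chd8-/- replicate 2, 1.363 in WT replicate 1 and 1.344 in WT replicate 2. The genotypes overlapped. The median TPM of the 75 genes was 1644.2 and 1519.8 in the Chd8-/- libraries and 1691.7 and 1725.3 in the WT libraries. Levels of single genes, which TPM gives per length, spanned a wide range, from 117.0 TPM for Rpl22 in Chd8-/- replicate 2 to 6210.2 TPM for Rpl41 in WT replicate 1. The methods name both a droplet kit that reads the 3' end and an RNA-seq kit, and per-length scaling holds only for reads along the whole mRNA. The log2 values of the 75 genes correlated at 0.981 between the Chd8-/- libraries, 0.990 between the WT libraries and 0.961 to 0.982 between genotypes, as a description over genes that share a library.

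No ribosomal protein gene passed an adjusted p of 0.05 (limma on log2(TPM + 1) with a trend, two-sided, Benjamini-Hochberg over 15240 genes), and 0% of all genes tested did. The smallest adjusted p was 0.403, for Rpl24. At an unadjusted p under 0.05 there were 5 of 75 genes, or 6.7%, against 10.2% of all genes tested, and the same limma fit without the trend left 0 of 75. No ribosomal protein gene reached a log2 fold change of 1 in either direction, whereas 5.12% of all genes tested were at 1 or above and 11.6% at -1 or below. All genes tested include many of low TPM, whereas these 75 were at 117.0 TPM or more in every library. No set of genes matched for level was compared. On simulated libraries with a spread typical of each TPM level, limma called 13 of 100 genes that had been given a log2 change of 1. That change is larger than any found in these 75 genes, but the changed genes were drawn from all TPM levels. The count is therefore not a measure of power for these abundant genes.

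The log2 fold changes of the 75 genes ran from -0.66 (Rpl24) to 0.45 (Rpl14), with a median of -0.08 and quartiles of -0.21 and 0.03. Over all genes tested the median was -0.15 and the quartiles -0.55 and 0.21. The median was -0.06 for large subunit genes and -0.13 for small subunit genes. In all, 52 of the 75 genes, or 69.3%, had lower values in Chd8-/- Tregs, as did 61.5% of all genes tested. Quantile normalization moved the median of all genes tested from -0.15 to 0.00 and that of the ribosomal protein genes to -0.09, so that they lay slightly above all genes on the first scale and slightly below on the second.

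Both Chd8-/- libraries were below both WT libraries for 22 genes, or 29.3%, against 27.8% of all genes tested. Both were above for 12 genes, or 16.0%, against 14.8% of all genes tested. These shares were near the background in each direction. Without Chd8-/- replicate 2 the single Chd8-/- library was below both WT libraries for 27 genes and above for 31, and the median was 0.01. Without Chd8-/- replicate 1 the counts were 49 and 15 and the median was -0.16. The median of all genes tested moved the same way, to -0.04 without Chd8-/- replicate 2 and -0.25 without Chd8-/- replicate 1. Of the 75 genes, 41 had their lowest value of the 4 libraries in Chd8-/- replicate 2, 13 in Chd8-/- replicate 1, 12 in WT replicate 1 and 9 in WT replicate 2. Shares of all genes tested were not counted without single libraries or for the lowest library, so these counts are not shown to be particular to ribosomal protein genes. Leaving out WT replicate 2 also moved the count below, to 37 genes.

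**Figure D2:**
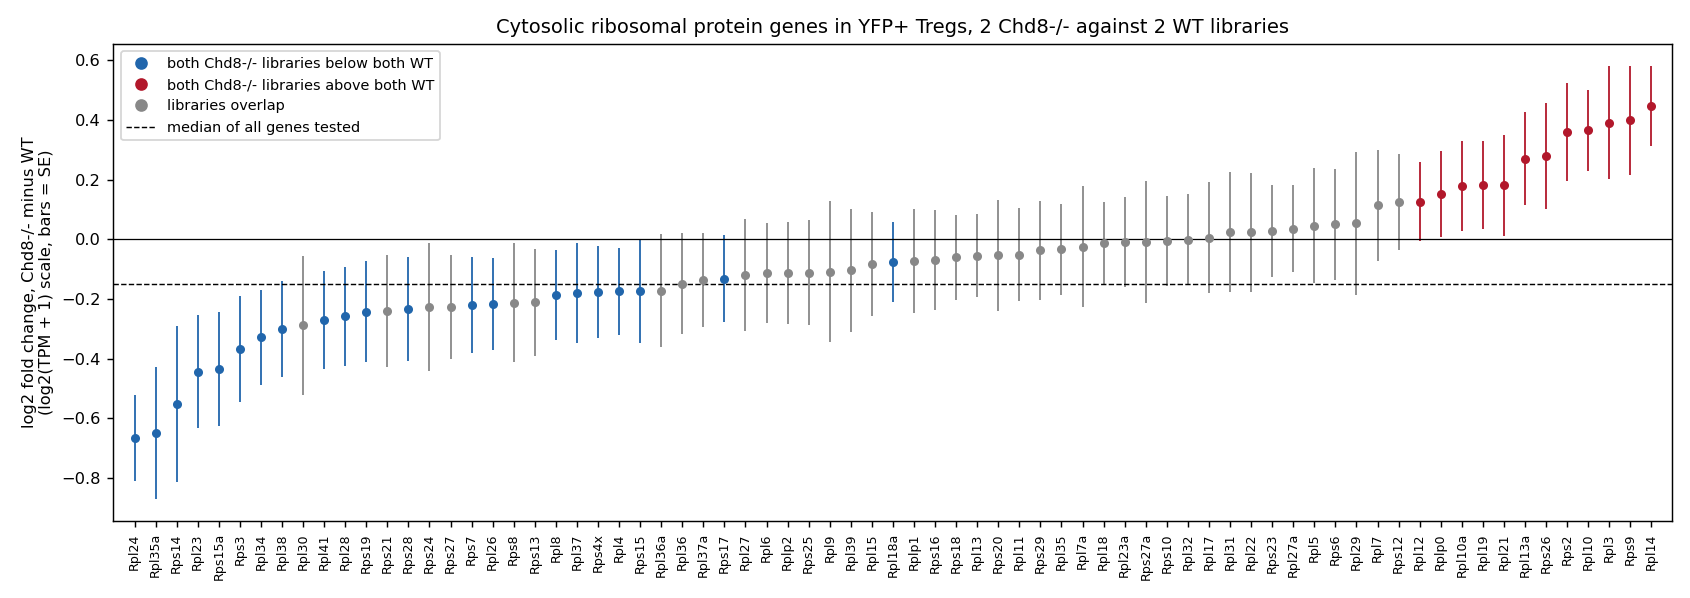
Log2 fold change of Chd8-/- against WT (vertical axis, log2(TPM + 1) scale, bars are the standard error from limma) for 73 of the 75 ribosomal protein genes in order of the change. Blue marks the 21 genes with both Chd8-/- libraries below both WT libraries, red the 12 with both above, grey the rest, and the dashed line the median of all genes tested at -0.15.

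Among large subunit genes, the 3 grouped here by the face that meets the small subunit, Rpl24, Rpl23 and Rpl41, each had both Chd8-/- libraries below both WT libraries, as had 27.8% of all genes tested. This grouping was made after the values were seen and is not a full list of the proteins at that face, so a shared direction of that face is not shown. Of all 46 large subunit genes, 12 had both Chd8-/- libraries below and 9 had both above. Rpl24 encodes a protein that reaches across to the small subunit. It was at 1134.5 and 1236.6 TPM in the Chd8-/- libraries against 1839.3 and 1918.5 TPM in the WT libraries. Both Chd8-/- libraries were lower and close to each other, and the log2 fold change was -0.66 (SE 0.14, unadjusted p of 0.00793, adjusted p of 0.403, limma with Benjamini-Hochberg). Leaving out any 1 library kept it between -0.73 and -0.60, and it was -0.74 after quantile normalization. Rpl23, whose protein is the docking site of the anti-association factor eIF6, was at 1510.0 and 1187.1 TPM in the Chd8-/- replicates against 1935.7 and 1711.7 TPM in the WT replicates. Its log2 fold change was -0.44 (SE 0.19), or -0.27 without Chd8-/- replicate 2, and the groups did not overlap. Rpl41, which encodes a very short protein between the subunits, was at 4593.5 and 4729.0 TPM against 6210.2 and 5080.4 TPM (log2 fold change -0.27, SE 0.16). WT replicate 1 was the high library here, and the WT libraries lay further apart than the Chd8-/- libraries. Without that library the value was -0.12.

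Of 3 genes whose proteins lie close to the peptidyl transferase centre, where peptide bonds form, Rpl10 and Rpl3 were among the highest of the 75. Rpl10, an X-linked gene whose protein is loaded late in the maturation of the large subunit, was at 2977.5 and 3143.9 TPM in the Chd8-/- replicates against 2361.2 and 2389.0 TPM in the WT replicates. The libraries of each genotype were close to each other, and the log2 fold change was 0.37 (SE 0.14, unadjusted p of 0.0498, adjusted p of 0.489, limma with Benjamini-Hochberg). Rpl3, whose protein reaches into this centre, was at 1306.0 and 1659.6 TPM against 1056.2 and 1192.9 TPM (log2 fold change 0.39, SE 0.19). Its groups did not overlap, although the Chd8-/- libraries differed from each other more than the genotypes did at their nearest libraries, and without Chd8-/- replicate 2 the value was 0.22. Rpl8, the third gene of this centre, was lower in both Chd8-/- libraries (1350.0 and 1522.9 TPM against 1576.9 and 1684.5 TPM), so that the genes of this centre did not share a direction.

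Rpl14 had the highest log2 fold change of the 75 genes. It encodes a protein on the outer surface of the large subunit. It was at 2412.8 and 2503.1 TPM in the Chd8-/- libraries against 1820.6 and 1786.0 TPM in the WT libraries. The spread within each genotype was small beside the gap between them, and the log2 fold change was 0.45 (SE 0.14, unadjusted p of 0.0263, adjusted p of 0.455, limma with Benjamini-Hochberg). The value stayed between 0.42 and 0.47 without each library. Rpl13a, known also as a part of a complex that silences translation after interferon-gamma, was at 1215.7 and 1086.1 TPM against 999.1 and 907.8 TPM (log2 fold change 0.27, SE 0.16).

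Rpl35a, mutated in some patients with Diamond-Blackfan anemia, a bone marrow failure of red cell precursors, had the second lowest value. It was at 599.2 and 431.3 TPM in the Chd8-/- replicates against 844.0 and 753.1 TPM in the WT replicates. The log2 fold change was -0.65 (SE 0.22, unadjusted p of 0.0388, adjusted p of 0.471, limma with Benjamini-Hochberg), and without Chd8-/- replicate 2 it was -0.41. Rpl34 was at 545.7 and 490.0 TPM against 680.2 and 620.1 TPM (log2 fold change -0.33, SE 0.16). Rpl38, linked in mice to the translation of Hox mRNAs, was at 559.9 and 527.4 TPM against 719.0 and 622.2 TPM (log2 fold change -0.30, SE 0.16). The groups did not overlap for either gene, and without WT replicate 1 the value of Rpl38 was -0.20.

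**Figure D3:**
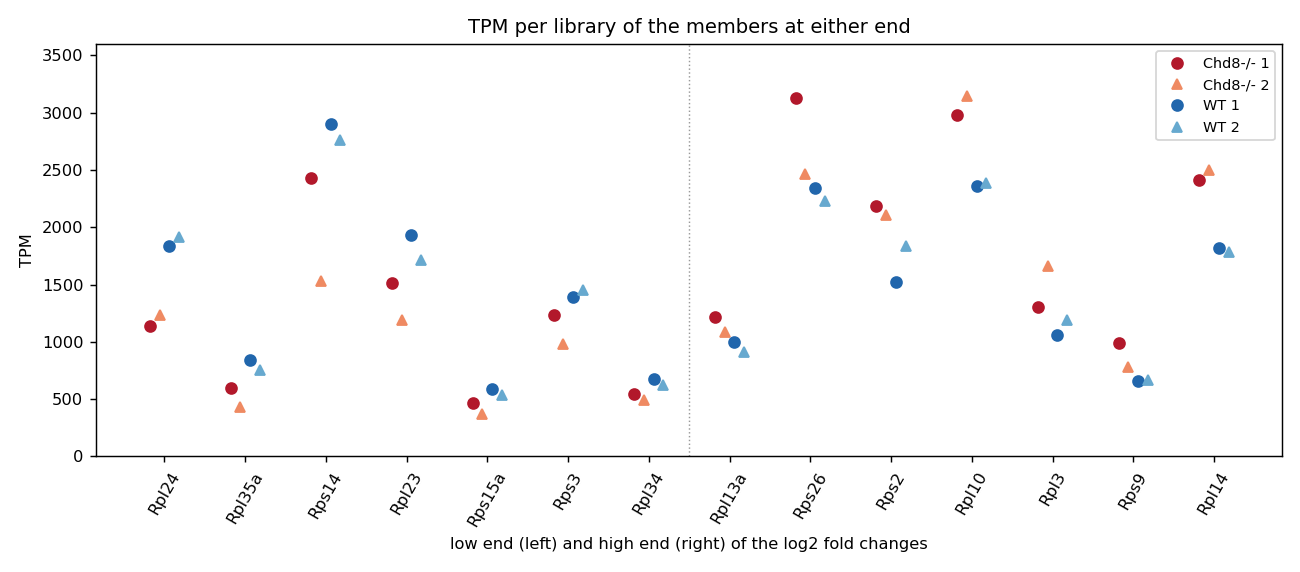
TPM (vertical axis, linear) in each library for 7 genes at the low end of the log2 fold changes (left of the dotted line) and 7 at the high end (right). Points are single libraries. For each of these 14 genes both Chd8-/- libraries lie on one side of both WT libraries. The genes were picked by their change in these same libraries, so this separation follows largely from that choice. Over all genes tested, both Chd8-/- libraries were below for 27.8% and above for 14.8%.

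Other large subunit genes with known roles differed little. The P stalk recruits elongation factors to the ribosome. Its base Rplp0 was at 2005.7 and 2184.7 TPM in the Chd8-/- replicates against 1819.1 and 1953.4 TPM in the WT replicates (log2 fold change 0.15, SE 0.14, or 0.090 without Chd8-/- replicate 2). Rplp1, the member with the highest mean TPM, was at 5700.6 and 4844.9 TPM against 5993.5 and 5094.3 TPM, and Rplp2 at 2602.2 and 2216.8 TPM against 2803.9 and 2406.7 TPM. For these partners of Rplp0 the libraries of the genotypes overlapped, and the log2 fold changes were -0.07 and -0.11. Rpl5 and Rpl11 form a particle with 5S ribosomal RNA, which binds Mdm2 when ribosome assembly fails. Rpl5 had a log2 fold change of 0.05 (SE 0.19) and Rpl11 of -0.05 (SE 0.16), with overlapping libraries. Of the 9 genes whose proteins line the peptide exit tunnel or its rim, 2 had both Chd8-/- libraries below and 1 had both above, against 27.8% and 14.8% of all genes tested, and their values ran from -0.22 to 0.18. Rpl39, which forms part of the tunnel wall and is X-linked, was at 4089.3 and 3180.0 TPM against 4302.1 and 3491.7 TPM.

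Rpl22 had the lowest mean TPM of the 75 genes. Its protein is dispensable for translation in general and is known for its need in the development of alpha-beta T cells. It was at 145.4 and 117.0 TPM in the Chd8-/- replicates against 128.6 and 127.9 TPM in the WT replicates, with a log2 fold change of 0.02 (SE 0.20). The paralog Rpl22l1, which the name rule leaves out, was at 206.6 and 253.3 TPM against 457.8 and 335.3 TPM. The groups of Rpl22l1 did not overlap, and its log2 fold change was -0.77 (SE 0.24, unadjusted p of 0.0273, adjusted p of 0.455, limma with Benjamini-Hochberg). The annotated mRNAs of the pair share no word of 50 bases, so that reads of this length or more without mismatch are not exchanged between them. Of the words of Rpl22l1, however, 69.6% occurred elsewhere in the genome, and an exchange of reads with other copies was not tested.

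Among small subunit genes, Rps14 had the lowest value. Its protein lies at the mRNA exit and its loss causes the anemia of the 5q- syndrome. It was at 2430.2 and 1534.7 TPM in the Chd8-/- replicates against 2901.0 and 2763.9 TPM in the WT replicates. The log2 fold change of -0.55 (SE 0.26) rested mostly on Chd8-/- replicate 2, without which it was -0.22. Rps15a, a Diamond-Blackfan anemia gene, was at 466.3 and 367.7 TPM against 585.9 and 535.2 TPM (log2 fold change -0.43, SE 0.19). In both genes Chd8-/- replicate 2 was the lowest library, and without it the value of Rps15a was -0.26.

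At the mRNA entry, where the message is unwound and fed in, the genes lay apart. Rps3, whose protein also acts outside the ribosome in DNA repair and NF-kappaB signaling, was at 1233.8 and 981.2 TPM in the Chd8-/- replicates against 1387.4 and 1450.4 TPM in the WT replicates (log2 fold change -0.37, SE 0.18). Rps2 was at 2182.6 and 2106.2 TPM against 1518.5 and 1838.5 TPM (log2 fold change 0.36, SE 0.16). Neither gene's libraries overlapped between genotypes. The value of Rps3 was -0.20 without Chd8-/- replicate 2, and that of Rps2 was 0.22 without WT replicate 1. Rps9 was at 989.6 and 779.1 TPM against 659.8 and 670.9 TPM, with a log2 fold change of 0.40 (SE 0.18), and Chd8-/- replicate 1 was the high library. Rps26, whose protein contacts the mRNA just upstream of the start codon, was at 3130.7 and 2465.6 TPM against 2347.1 and 2231.2 TPM (log2 fold change 0.28, SE 0.18). Without Chd8-/- replicate 1 the values were 0.23 for Rps9 and 0.11 for Rps26.

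Of further small subunit genes named for their roles, Rps6, Rps10, Rps20 and Rps27a had overlapping libraries, and Rps4x and Rps19 had both Chd8-/- libraries below both WT libraries. Rps6, the substrate of the S6 kinases downstream of mTORC1, was at 2099.5 and 1678.4 TPM in the Chd8-/- replicates against 1687.5 and 1947.5 TPM in the WT replicates (log2 fold change 0.05, SE 0.19). Rps10 and Rps20, which carry ubiquitin when ribosomes collide, had log2 fold changes of -0.01 (SE 0.15) and -0.05 (SE 0.19), with overlapping libraries. Rps27a, which is made as a fusion with ubiquitin, was at 920.8 and 731.1 TPM against 910.8 and 747.3 TPM. The X-linked Rps4x was at 1457.8 and 1500.9 TPM against 1547.0 and 1805.2 TPM (log2 fold change -0.18, SE 0.16, or -0.065 without WT replicate 2). Rps19, the gene most often mutated in Diamond-Blackfan anemia, was at 641.4 and 531.7 TPM against 700.3 and 681.8 TPM (log2 fold change -0.24, SE 0.17, or -0.11 without Chd8-/- replicate 2). Of 19 Diamond-Blackfan anemia genes, 16 had lower values in Chd8-/- Tregs and 7 had both libraries below, with a median of -0.12. Over all genes tested these shares were 61.5% and 27.8% and the median was -0.15.

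Genes with the highest TPM were close between genotypes. Duplicate reads had been removed before counting, and the effect of that step on genes this abundant was not tested. Of those highest by mean TPM, Rplp1, Rpl32, Rpl41, Rps23, Rps16, Rps18, Rps29, Rpl39 and Rpl12 had log2 fold changes from -0.27 for Rpl41 to 0.13 for Rpl12. Rpl32 was at 5518.9 and 4898.8 TPM in the Chd8-/- replicates against 5484.5 and 4933.1 TPM in the WT replicates, a log2 fold change of 0.00 (SE 0.15). Rps23, a protein of the decoding site, was at 5097.3 and 4613.2 TPM against 5088.1 and 4443.6 TPM. Rps27, a zinc finger protein, was at 2696.7 and 2301.6 TPM against 3165.2 and 2681.0 TPM (log2 fold change -0.23, SE 0.17, or -0.11 without WT replicate 1). Neither the level, the mRNA length nor sequence sharing followed the change closely. Across the 75 genes, as a description, Pearson's r with the log2 fold change was 0.04 for log2 mean TPM, 0.15 for log2 mRNA length and 0.07 for the share of sequence found elsewhere.

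Ribosomal protein genes have many processed copies in the mouse genome, and how reads that match several places were counted is not given in the sources used here. In the RefSeq annotation of GRCm38.p6 a median of 69.6% of the words of 50 bases in these mRNAs occurred elsewhere in the genome. The share exceeded 90% in 16 genes and 50% in 50 genes, and was 3.5% in Rps3 and 100% in Rps27 and Rpl28. Values of genes with a large share are uncertain to that extent, as holds for most genes named above. Of those at the low end, the share was 84.9% in Rpl24, 76.7% in Rpl35a, 63.7% in Rpl34, 44.2% in Rpl23, 42.9% in Rps14 and 6.8% in Rps15a. At the high end it was 94.8% in Rpl10, 91.2% in Rpl3, 79.1% in Rps2, 60.7% in Rps26, 57.8% in Rpl14, 45.6% in Rps9 and 27.0% in Rpl13a. Among the genes of highest TPM it reached 99.3% in Rpl12, 91.9% in Rps23, 89.4% in Rps18 and 86.2% in Rps16. Small nucleolar RNA genes lie within 28 of the 75 genes. Those had a median log2 fold change of -0.05 and the other 47 one of -0.11.

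Of 12 entries annotated as ribosomal protein pseudogenes, Rpl34-ps1 stood out. It lies on chr6:71124589-71125001 (plus strand) as a single exon, to which RefSeq assigns a coding sequence. It was at 541.5 and 535.9 TPM in the Chd8-/- libraries against 157.7 and 141.7 TPM in the WT libraries. The log2 fold change was 1.84 (SE 0.16, unadjusted p of 0.00021, adjusted p of 0.373, limma with Benjamini-Hochberg), and it stayed between 1.77 and 1.92 without each library. Its parent Rpl34 went the other way, as given above. The sum of both was 1087.2 and 1025.9 TPM against 837.9 and 761.8 TPM, a log2 fold change of 0.40.

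Both coding sequences, of 354 bases each, differ at 2 positions, counted from 1 at the first base of the start codon, written as the base of Rpl34, the position and the base of Rpl34-ps1: T132C and C318G. Over the aligned mRNAs 99.5% of bases were identical, 72.5% of the words of 50 bases in Rpl34-ps1 were shared with Rpl34, and 100% occurred somewhere else in the genome. Coding bases 103 to 132 are shown from RefSeq, with the differing base in capitals, since so few positions separate the entries.
Rpl34: accaagaaggttgggaaagcacctaaatcT
Rpl34-ps1: accaagaaggttgggaaagcacctaaatcC
Which of these entries, or which other copy, a read came from was therefore decided by few bases, and the division of reads between the entries was not tested.

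Rpl14-ps1 was at 413.8 and 426.6 TPM in the Chd8-/- replicates against 305.7 and 279.7 TPM in the WT replicates (log2 fold change 0.52, SE 0.16). Here the parent Rpl14 had the same direction, and the sum of both gave a log2 fold change of 0.46. The mRNAs share 99.3% of aligned bases. Of the other entries, Rpl17-ps10 had a value of 0.19, and the 3 lowest were Rps15a-ps6 (-0.68), Rps15a-ps5 (-0.50) and Rps19-ps3 (-0.48). Without Chd8-/- replicate 2 these were -0.36, -0.31 and 0.0072. All 3 entries for Rps15a had both Chd8-/- libraries below both WT libraries, as Rps15a itself did. Over the 12 entries the median was -0.15, the value of all genes tested, with 2 above and 5 below in both libraries against 14.8% and 27.8% of all genes tested.

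**Figure D4:**
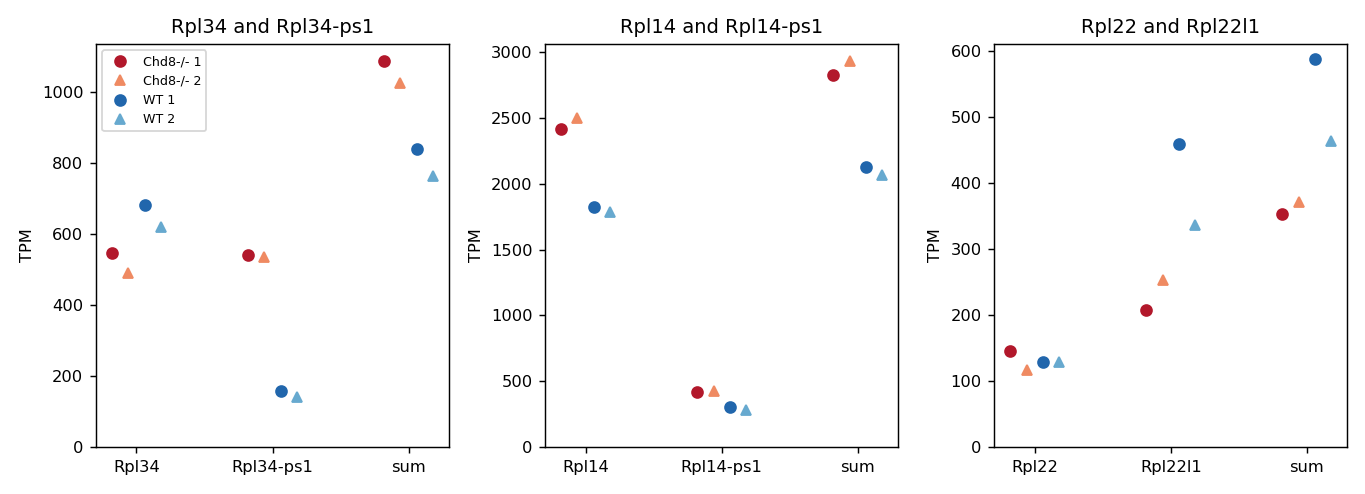
TPM (vertical axes, linear, starting at 0) in each library for Rpl34 and Rpl34-ps1, Rpl14 and Rpl14-ps1, and Rpl22 and Rpl22l1, and for the sum of each pair. Circles are replicate 1 and triangles replicate 2; Rpl34-ps1 is the entry with a higher level in Chd8-/- libraries while its parent is lower.

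Some ribosomal proteins whose symbols fall outside the name rule were also measured. Rps3a1 was at 1873.7 and 1714.9 TPM in the Chd8-/- replicates against 2770.1 and 2901.3 TPM in the WT replicates. The libraries of each genotype were close, and the log2 fold change was -0.66 (SE 0.14, unadjusted p of 0.00789, adjusted p of 0.403, limma with Benjamini-Hochberg), as low as that of Rpl24. Of the words of 50 bases in the Rps3a1 mRNA, 81.8% occurred elsewhere in the genome. Rpsa, which encodes a protein of the small subunit also known as a laminin receptor, was at 1338.5 and 1756.3 TPM against 1770.8 and 1845.9 TPM. Fau, a fusion of a ubiquitin-like protein with a small subunit protein, was at 734.4 and 644.3 TPM against 850.5 and 858.7 TPM.

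Of 10 paralogs, 6 passed the filter. Besides Rpl22l1, Rpl36al was at 1326.1 and 1370.8 TPM in the Chd8-/- replicates against 1152.4 and 902.2 TPM in the WT replicates (log2 fold change 0.40, SE 0.18, or 0.23 without WT replicate 2). Its partner Rpl36a had -0.17 (SE 0.19) with overlapping libraries. Rps27l, a p53 target, was at 81.6 and 75.7 TPM against 71.2 and 39.9 TPM. Rps4l, at 24.3, 1.0, 2.6 and 6.4 TPM, varied more within than between genotypes. Rps27rt had a value of -0.27 and Rpl7l1 of 0.02. Rpl3l, Rpl10l and Rpl39l did not pass the filter, and Rpl26l1 was not found under that name.

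Other genes of the translation machinery were described with lists chosen with earlier results of these data known, and none of their genes passed an adjusted p of 0.05 (limma, Benjamini-Hochberg). Of 21 elongation factors and other TOP mRNAs, 2 had an unadjusted p under 0.05, both lower, against 10.2% of all genes tested. These were Eif3e, a subunit of initiation factor eIF3 (666.7 and 507.1 TPM against 992.1 and 1035.6 TPM, log2 fold change -0.80), and Naca, which binds nascent peptides (139.3 and 130.9 TPM against 193.4 and 190.7 TPM, log2 fold change -0.51). The list had a median of -0.05, close to that of the ribosomal protein genes. Its other extreme genes were Eif4a2 at -0.23, Eif3a at 0.17, Nap1l1 at 0.23 and Eef1d at 0.30. Of 29 initiation factors, with a median of 0.04, 11 had both Chd8-/- libraries above and 7 below, against 14.8% and 27.8% of all genes tested. Eif2b1 (1.24), Eif3b (0.66) and Eif2s2 (0.59) were the highest, and Eif2b3 (-1.04), Eif2b4 (-0.56) and Eif4g3 (-0.47) the lowest. Without Chd8-/- replicate 2 Eif2b1 was at 0.79 and Eif2b3 at -0.22.

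Ribosome biogenesis factors, which process ribosomal RNA and assemble the subunits, had a median log2 fold change of 0.17, or 0.067 without Chd8-/- replicate 1 and 0.30 without Chd8-/- replicate 2. The difference from the ribosomal protein genes was not tested. Of 47 tested, 38 had higher values in Chd8-/- Tregs, and both Chd8-/- libraries were above both WT libraries for 16 and below for 1, against 14.8% and 27.8% of all genes tested. For a log2 fold change below 0 the share of all genes tested was 61.5%. Noc4l was at 68.1 and 121.1 TPM against 31.2 and 63.3 TPM (log2 fold change 1.01, or 0.51 without WT replicate 1). Ltv1, an export factor of the small subunit, followed with both Chd8-/- libraries above (log2 fold change 0.93, SE 0.26, adjusted p of 0.441, limma with Benjamini-Hochberg). Mrto4 was the third, at 0.88, or 0.50 without Chd8-/- replicate 2. The lowest were Rrp12 (-0.88), Nat10 (-0.56) and Rrs1 (-0.47), in each of which the libraries overlapped. Without Chd8-/- replicate 2 these were -0.18, -0.050 and 0.074.

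RNA polymerase I, which transcribes ribosomal RNA, and its factors gave a median of 0.01 over 15 genes, from Taf1c (-0.79), Taf1b (-0.27) and Taf1a (-0.11) to Polr1d (0.19), Znrd1 (0.19) and Rrn3 (0.41). Both Chd8-/- libraries were above for 1 of these genes and below for 1, against 14.8% and 27.8% of all genes tested. Regulators of TOP mRNA translation had a median of -0.04 over 14 genes. Eif4ebp3, a repressor of cap-dependent translation, was at 84.5 and 86.4 TPM against 56.7 and 35.0 TPM (log2 fold change 0.92), followed by Eif4ebp1 (0.57) and Rps6kb2 (0.54). Tial1 (-0.79), Tia1 (-0.57) and Eif4ebp2 (-0.42) were the lowest. Without WT replicate 2 Eif4ebp3 was at 0.58, and without Chd8-/- replicate 2 Eif4ebp1 was at -0.055 and Tia1 at -0.050. The 77 mitochondrial ribosomal protein genes had a median of 0.01, with 16 above and 12 below, against 14.8% and 27.8% of all genes tested. Their values ran from Mrps28 (-2.40), Mrps5 (-1.50) and Mrpl10 (-1.13) to Mrpl41 (0.84), Mrpl47 (0.95) and Mrps33 (1.16). Mrps28 was at 37.7 and 0.3 TPM against 51.0 and 25.8 TPM, and Mrps5 at 68.6 and 8.5 TPM against 84.0 and 60.8 TPM. Both values rested on Chd8-/- replicate 2, without which they were 0.052 and -0.058, and that of Mrpl10 was -0.60 and of Mrpl47 0.27. Levels of this list were far lower, at 4325.7 to 5080.4 TPM in sum.

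**Figure D5:**
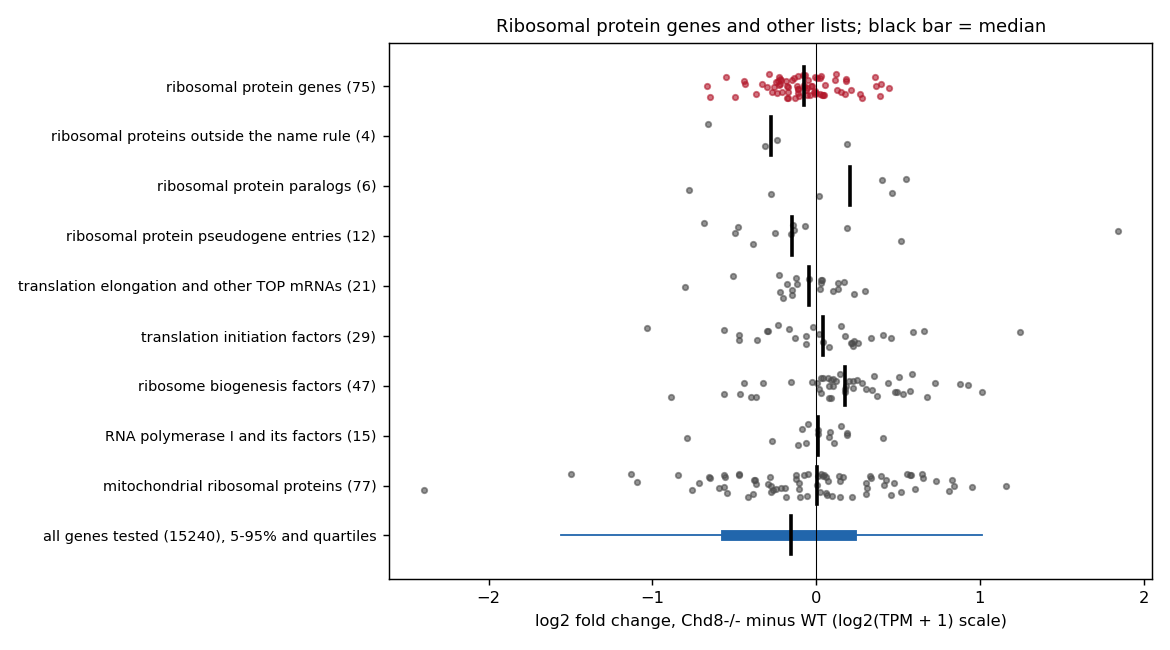
Log2 fold change of Chd8-/- against WT (horizontal axis, log2(TPM + 1) scale) for single genes (points, spread vertically at random) of the ribosomal protein genes and 8 other lists, with the median of each as a black bar. The lowest line gives all 15240 genes tested as the range from the 5th to the 95th percentile (thin) and the quartiles (thick); ribosomal protein genes lie within -0.66 to 0.45.

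Several ribosomal proteins bind Mdm2, the ubiquitin ligase that degrades p53. Of these, Rpl23 and Rps14 are described above, Rps7 had both Chd8-/- libraries below (1615.5 and 1621.2 TPM against 2058.7 and 1725.3 TPM, log2 fold change -0.22, or -0.092 without WT replicate 1), and Rpl5, Rpl11 and Rps27a overlapped. Mdm2 was at 82.5 and 63.0 TPM against 52.1 and 56.3 TPM (log2 fold change 0.41, SE 0.24, or 0.21 without Chd8-/- replicate 1). Mdm4 was at 45.8 and 29.7 TPM against 55.1 and 61.5 TPM, and Trp53, which encodes p53, at 89.1 and 60.6 TPM against 88.6 and 75.5 TPM. Cdkn1a, the p53 target that encodes the cell cycle inhibitor p21, was at 190.7 and 150.1 TPM in the Chd8-/- replicates against 0.2 and 0.3 TPM in the WT replicates (log2 fold change 7.09, SE 0.31, adjusted p of 0.0807, limma with Benjamini-Hochberg). None of the ribosomal protein genes came near a change of that size.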

How the data were processed

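RNA-seq of 2 WT and 2 Chd8-/- mice was used. Per the submitters' processing notes and the study's methods, the authors trimmed reads with Trim Galore 0.4.2 and cutadapt 1.9.1, aligned them to mm10 with STAR 2.6.1e, removed duplicates with sambamba and counted RefSeq genes with featureCounts 1.6.2. The deposited values are TPM, rounded to 0.1, and their depth is unknown. Strand and multi-mapping settings are not given in the sources used here.

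Of 35869 entries, 4 under repeated names were left out. A gene was tested if its TPM reached 1 in 2 or more libraries. The scale was log2(TPM + 1), which understates changes of low genes, and the test was limma (version 3.58.1 under R 4.3.3, lmFit and eBayes, trend on, two-sided), adjusted by Benjamini-Hochberg over 15240 genes. On simulated data 200 genes, drawn at random from all those tested, were changed, with a spread typical of each TPM level. There limma called 56 of 100 at a log2 fold change of 2 and 2 of 15040 unchanged genes. Sequences came from RefSeq for GRCm38.p6. Software was Python 3.11.15 with pandas 2.3.3, numpy 2.4.6 and, for figures, matplotlib 3.10.9.

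The genes, lists and tests were chosen with earlier results of these data known. Named are the 10 genes of highest mean TPM, the 8 highest and 8 lowest log2 fold changes, those with p under 0.05, a list by role, Chd8, and from other lists all genes of lists of up to 10, otherwise the 3 highest and 3 lowest. Genes named outside this rule, among them Rpl8, Rpl28, Rpl36a, Xist, the Y-linked genes and single markers, were chosen after their values were seen. Groupings by role within the ribosome were also made after the values were seen. ATAC-seq and CHIP-seq peak tables, in mm39, were not used here.

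Alternatives were pseudocounts of 0.1 and 5 TPM, quantile normalization, no filter on low values or a mean TPM of 5 and over, rescaling to genes that are no ribosomal protein genes, a total without Mir and Snor genes, a replicate block, eBayes without trend, a tract with 3 pyrimidines, and each library left out. Summing an entry with its parent gene was added after seeing the data. Some genes that the naming rule selects are not reported here by name.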

Additional observations from a re-analysis of the deposited data

How the results depend on the processing

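No ribosomal protein gene was called at an adjusted p of 0.05 or reached a log2 fold change of 1 in either direction under any setting tried, the 2 pseudocounts, both filters, quantile normalization, rescaling, the block, eBayes without trend and each library left out. Without trend, no ribosomal protein gene had an unadjusted p under 0.05. With 2 libraries a genotype and unknown depth, no gene tested was called in the fit described above, so this says little of stability. Over all genes, 415 of 35865 were called without a filter, and 2 of 11351 were called with a mean TPM of at least 5. Leaving out 1 library leaves a single library in its genotype, assumed to vary like the others. Over these fits the count with Chd8-/- above WT ranged from 15 to 31 genes (12 with all libraries), the count below from 26 to 49 (22 with all libraries), and the median log2 fold change of the ribosomal protein genes from -0.16 without Chd8-/- replicate 1 to 0.012 without Chd8-/- replicate 2. With fewer libraries the groups separate more easily. The median of all genes tested also ranged, from -0.25 without Chd8-/- replicate 1 to -0.04 without Chd8-/- replicate 2. Their counts above and below were not made for these fits. The ratio of summed TPM, 0.957, was 0.950 after rescaling and 0.962 with Mir and Snor genes out of the total. The share of starts with a tract was 85.5% with 3 pyrimidines, against 70.7% of all genes.

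Replicate numbers 1 and 2 are shared by the genotypes, but nothing says that they pair the mice. Deviations of same-numbered libraries correlated at -0.01 over all genes tested and 0.23 over the ribosomal protein genes, so the numbers were not treated as pairs. With the replicate block 0 ribosomal protein genes were called, the smallest adjusted p was 0.552 (limma, Benjamini-Hochberg), and 2 instead of 5 genes had an unadjusted p under 0.05. The median stayed at -0.08.

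Without single libraries the list medians ranged from -0.38 to 0.36 for paralogs, -0.025 to 0.11 for initiation factors, -0.19 to 0.031 for regulators of TOP mRNA translation, -0.21 to 0.090 for the Mdm2 list, -0.17 to 0.17 for mitochondrial ribosomal proteins, -0.36 to 0.0054 for pseudogene entries, 0.067 to 0.30 for ribosome biogenesis factors, -0.10 to 0.050 for elongation factors and other TOP mRNAs and -0.10 to 0.028 for RNA polymerase I. Without a filter the paralogs gave 0.016 and the regulators 0.089, with a mean TPM of at least 5 the regulators gave -0.16, and with quantile normalization the initiation factors gave 0.11. Fewer or more genes enter under the filters, and otherwise the cause was not tested.

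Of 43 genes followed through these settings, 15 changed sign in 1 or more, each with a log2 fold change over all libraries within 0.11 of 0. Without single libraries the ranges were -0.16 to 0.058 for Rpl11, -0.13 to 0.18 for Rpl22, -0.086 to 0.085 for Rpl32, -0.29 to 0.077 for Rpl39, -0.10 to 0.19 for Rpl5, -0.19 to 0.045 for Rplp1, -0.23 to 0.0025 for Rplp2, -0.10 to 0.090 for Rps10, -0.20 to 0.066 for Rps16, -0.13 to 0.012 for Rps18, -0.22 to 0.12 for Rps20, -0.069 to 0.13 for Rps23, -0.17 to 0.16 for Rps27a, -0.18 to 0.11 for Rps29 and -0.11 to 0.21 for Rps6. With quantile normalization the sign turned for Rpl22 (-0.021), Rpl32 (0.038), Rpl39 (0.021), Rps10 (0.011) and Rps23 (-0.038). The cause was not tested. The other 28 of the 43 kept their sign. Of genes outside those 43, Rpl36a reached 0.025, Rps19-ps3 0.0072 and Rpl17-ps10 -0.035 without single libraries, and Rps4l ranged from -1.37 to 2.29. Genes of other lists were followed only without single libraries, and some of those also turned, such as Nap1l1 (-0.010 without Chd8-/- replicate 1), Eif4a2 (0.081) and Trp53 (0.12), both without Chd8-/- replicate 2.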
